A study of Mus musculus with 4 samples.

Results

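Jun, Junb, Jund, Fos, Fosb, Egr1, Ier2, Ier3, Atf3 and Dusp1 are immediate early genes, most of which encode AP-1 and related transcription factors. They were followed in cells of mouse prostate tumours by droplet single-cell RNA sequencing. The 10 genes were found by their symbols among the 32285 genes of the count tables, and each symbol matched 1 row. TKO tumours carry Nkx3.1CreERT2 with floxed alleles that include Smad4L/L and Pygo2L/L, and DKO tumours carry the same Cre and floxed alleles without Pygo2L/L. Each genotype has 2 libraries. Both genotypes thus share the Cre and the floxed Smad4 allele, and no tumour-free tissue is among the samples. CreERT2 is a Cre recombinase switched on by tamoxifen, and Nkx3.1 is a gene of the prostate epithelium, so the driver is known for acting in epithelial cells and not in the immune or stromal cells of the tumour. The design text names 10 and 17 weeks after tamoxifen and ties no library to either. Per the labels, tumours were digested with a dissociation kit at 37 °C, red cells were lysed, cells binding Annexin V were removed, and the hashtagged samples were loaded together.

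Immediate early genes are switched on within minutes by growth factors, cytokines and stress, from transcription factors that already sit in the cell. Jun proteins pair with each other or with Fos proteins to form AP-1, which binds DNA at promoters and enhancers. The same genes are also known to be induced while tissue is digested at warm temperature, so in dissociated tumour cells their RNA can carry both the state of the cell in the tumour and its handling. Dusp1 encodes a phosphatase that switches MAP kinases off, and is itself part of the early response. By GENCODE on GRCm38, Atf3 (ENSMUSG00000026628) lies on chromosome 1, Jun (ENSMUSG00000052684) on 4, Fosb (ENSMUSG00000003545) on 7 and Fos (ENSMUSG00000021250) on 12. Chromosome 8 carries Ier2 (ENSMUSG00000053560), Junb (ENSMUSG00000052837) and Jund (ENSMUSG00000071076), chromosome 17 Dusp1 (ENSMUSG00000024190) and Ier3 (ENSMUSG00000003541), and chromosome 18 Egr1 (ENSMUSG00000038418).

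After filtering, 1208 and 797 cells were kept in TKO libraries 1 and 2, with 18360201 and 10505183 UMIs (unique molecular identifiers, one per captured RNA molecule), and 617 and 759 cells in DKO libraries 1 and 2, with 9167770 and 14660012 UMIs. Median depth lay between 8404 and 10310 UMIs per cell over the 4 libraries. No barcode was shared between libraries, and every kept cell had its own library's hashtag highest. Clusters built without the 10 genes were named from marker genes, and 6 classes had at least 20 cells in every library. These were neutrophil-like, T- and NK-like, macrophage- and monocyte-like, dendritic-like, epithelial-like and fibroblast-like cells, led by genes such as Retnlg, Cd8b1, C1qa, Cd209a, Svs5 and Col1a1. Pygo2, whose floxed allele separates the genotypes, gave 25 and 4 UMIs in epithelial-like cells of the TKO libraries and 10 and 33 UMIs in those of the DKO libraries (edgeR log2 change 0.55 ± 0.54, SE, adjusted p = 0.862). The sources used here do not give the deleted exons, so the 3-prime reads check neither the deletion nor the labels.

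RefSeq promoters of build GRCm38.p6 were at hand for 8 of the 10 genes, all but Ier2 and Egr1. Of these, 3 are printed because they show the upstream elements through which stress signals are known to reach these genes. TGACG is the core of the cAMP response element, TGACATCA the variant of the AP-1 element through which Jun is known to act on its own gene, and TGACGTCA the full cAMP response element. Capitals mark these letters, and each line runs 5′ to 3′ on the strand of the gene. The Fos and Jun stretches end at the base before the transcription start, and the Dusp1 stretch runs from 150 to 51 bases before it.
Fos, chr12:85473740-85473889, plus strand: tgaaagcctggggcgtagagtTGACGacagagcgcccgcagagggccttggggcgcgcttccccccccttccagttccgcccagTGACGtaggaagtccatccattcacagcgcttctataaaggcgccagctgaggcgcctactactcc
Jun, chr4:95052223-95052372, minus strand: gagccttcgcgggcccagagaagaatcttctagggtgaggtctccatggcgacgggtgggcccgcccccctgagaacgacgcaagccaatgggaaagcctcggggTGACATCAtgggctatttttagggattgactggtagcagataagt
Dusp1, chr17:26508523-26508622, minus strand: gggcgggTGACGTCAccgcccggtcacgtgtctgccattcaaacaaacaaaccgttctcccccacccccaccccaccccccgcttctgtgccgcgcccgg
Both strands of the 250 bases before the start were searched, and TGACGTCA contains TGACG. The short core TGACG was found in the windows of 5 of the 8 genes (Junb, Fos, Fosb, Atf3 and Dusp1) and in 17.8% of all 32851 promoters searched the same way. TGACATCA was found in the Jun window alone of the 8 and in 2.93% of all promoters, and TGACGTCA in the Dusp1 window alone and in 1.55%. TATAAA was found in the Fos window alone and in 12.4% of all promoters. TGANTCA, the AP-1 consensus, was in the window of 0 of the 8 genes and in 6.75% of all promoters, and the CArG box bound by serum response factor was in 0 of the 8 and in 1.47%. Sequence farther than 250 bases before the start was not searched, nor were Ier2 and Egr1. A count of 0 thus does not mean that these genes lack the element. A match is a description of these letters, not of binding.

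The 3 Jun genes, which encode the partners that every AP-1 dimer needs, had different cell classes at the top. Jun reached 1400 and 2887 CPM (the UMIs of the gene over all UMIs of the class in a library, scaled to one total for all libraries) in epithelial-like cells of the TKO libraries and 999 and 1063 CPM in those of the DKO libraries. In fibroblast-like cells Jun stood at 1169 and 1696 CPM in TKO and 1036 and 1163 CPM in DKO. Neutrophil-like cells held 338 and 363 CPM in TKO and 247 and 406 CPM in DKO. The ranges of epithelial-like and fibroblast-like cells overlapped, and both lay above neutrophil-like cells in every library. The other 3 immune classes averaged between 163.8 and 173.5 CPM of Jun and overlapped each other, so that the mean in epithelial-like cells was 9.70 times that in macrophage- and monocyte-like cells. Junb, a Jun protein abundant in myeloid cells and T cells, was highest in neutrophil-like cells. They held 4176 and 3682 CPM in TKO and 4428 and 4403 CPM in DKO, from 14464 and 6062 UMIs and from 10401 and 8547 UMIs. That range lay above the next class, fibroblast-like cells, with 1808 and 2150 CPM in TKO and 1663 and 1602 CPM in DKO. Below neutrophil-like cells, each class overlapped the next in the order down to dendritic-like cells at a mean of 1092 CPM. Jund, which is held to be expressed in resting cells as well, varied least of the Jun genes. Its mean of 1331 CPM in epithelial-like cells was 2.30 times the 579.8 CPM of dendritic-like cells, and only the epithelial-like range stood apart from its neighbour.

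The Fos genes, whose proteins join AP-1 only as partners of a Jun protein, and Egr1, a zinc finger factor of the same early wave, were highest in fibroblast-like cells. Fos had 2514 and 3460 CPM there in TKO and 1804 and 2420 CPM in DKO, which overlapped the epithelial-like range of 975 to 1900 CPM. Neutrophil-like cells averaged 1100 CPM and macrophage- and monocyte-like cells 670.8 CPM. T- and NK-like cells were lowest, with 100 and 173 CPM in TKO and 254 and 121 CPM in DKO. The mean in fibroblast-like cells was 15.7 times that in T- and NK-like cells. Fosb followed the same order of classes at a ratio of 10.8, with 1704 and 1913 CPM in fibroblast-like cells of TKO and 1483 and 1402 CPM in those of DKO. Egr1 had 1356 and 2063 CPM in fibroblast-like cells of TKO and 1303 and 1408 CPM in those of DKO, and this range lay above all other classes. Epithelial-like cells averaged 784.4 CPM of Egr1 and neutrophil-like cells 624.9 CPM, with overlapping ranges. Macrophage- and monocyte-like cells averaged 118.5 CPM, and T- and NK-like and dendritic-like cells 60.5 and 50.4 CPM. The 3 last-named classes overlapped in the order, and the mean in fibroblast-like cells was 30.4 times that in dendritic-like cells.

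Atf3, a stress-induced factor that can pair with Jun proteins, was the gene of the 10 with the widest spread between classes. Epithelial-like cells held 1790 and 2310 CPM in TKO and 1708 and 1509 CPM in DKO, above every library of fibroblast-like cells (443 to 506 CPM). The T- and NK-like mean of 49.1 CPM was the lowest, and the epithelial-like mean was 37.3 times as high. Fibroblast-like cells in turn lay above macrophage- and monocyte-like and neutrophil-like cells, and these above dendritic-like cells. Ier3, a small protein tied to NF-kB signalling and cell survival, spread almost as widely, by 36.2 times. It was highest in neutrophil-like cells, with 1505 and 1614 CPM in TKO and 1921 and 1883 CPM in DKO, and overlapped there with fibroblast-like cells at 1653 and 2077 CPM in TKO and 1320 and 1370 CPM in DKO. T- and NK-like cells held 44.2 and 52.6 CPM in TKO and 54.2 and 40.5 CPM in DKO, below every other class. Dusp1 was highest in neutrophil-like cells, at 1368 and 1627 CPM in TKO and 1139 and 1797 CPM in DKO, overlapping fibroblast-like cells at a mean of 1027 CPM. It was lowest in dendritic-like cells at 197.5 CPM. Ier2, a nuclear protein of the early response, varied least of the 10 genes, with means between 169.4 CPM in dendritic-like cells and 331.9 CPM in fibroblast-like cells. The first 4 classes in its order, fibroblast-like, epithelial-like, neutrophil-like and T- and NK-like cells, each overlapped the next.

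**Figure D1:**
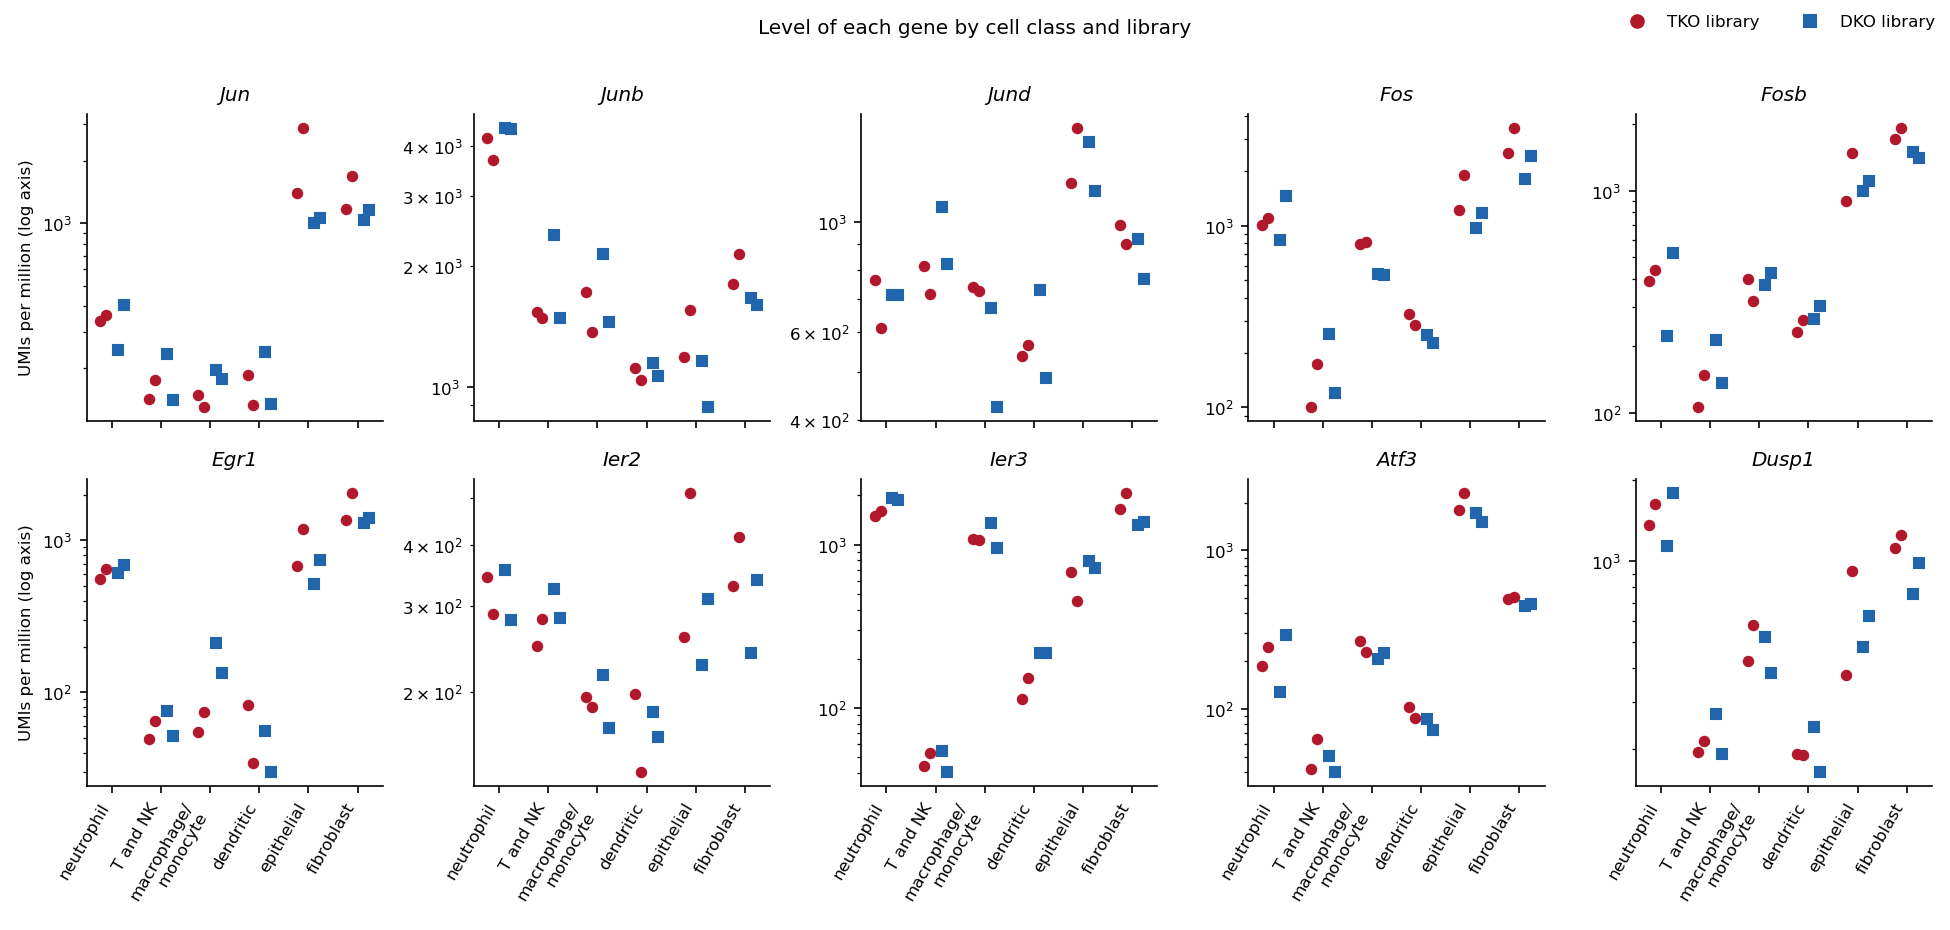
Level of each gene in 6 cell classes, in CPM on a log axis whose range differs between panels, with 1 point per library (red circles TKO, blue squares DKO). Epithelial-like and fibroblast-like cells lead for Jun, Fos, Fosb and Egr1, neutrophil-like cells stand alone for Junb at 3682 to 4428 CPM, and Ier3 spans from 40.5 CPM in T- and NK-like cells to 2077 CPM in fibroblast-like cells.

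Summed, the 10 genes took 13130 and 16430 CPM in fibroblast-like cells of TKO and 10970 and 11910 CPM in those of DKO. Neutrophil-like cells held 10650 and 10620 CPM in TKO and 10580 and 12440 CPM in DKO, and epithelial-like cells 9688 and 14740 CPM in TKO and 9306 and 9305 CPM in DKO. These 3 classes overlapped, and each library of them lay above every library of the other 3. Macrophage- and monocyte-like cells averaged 5658 CPM, T- and NK-like cells 3726 CPM and dendritic-like cells 3063 CPM. When each cell was thinned to 1000 UMIs, leaving out the 42 kept cells below that depth, class medians pooled over libraries kept this order. The median cell then held 14 UMIs of the 10 genes in the fibroblast-like class, 10 in the neutrophil-like, 9 in the epithelial-like, 5 in the macrophage- and monocyte-like, 3 in the T- and NK-like and 2 in the dendritic-like class. Single libraries departed from it among the highest classes. In DKO library 1 the median was 9 in fibroblast-like and 10 in neutrophil-like cells. In TKO library 2 it was 11 in epithelial-like and 10 in neutrophil-like cells. At least 5 of the 10 genes were detected in 73.9% of thinned fibroblast-like cells, against 4.74% of T- and NK-like and 5.41% of dendritic-like cells. Epithelial-like and fibroblast-like cells also spread widely, with the middle 80% of thinned cells between 2 and 23 UMIs and between 2.6 and 25 UMIs. For single genes the thinned shares followed the levels. Ier3 was detected in a mean of 68.1% of thinned neutrophil-like cells and in 5.08% of T- and NK-like cells, and Atf3 in 59.6% of epithelial-like and 5.26% of T- and NK-like cells. At full depth Ier3 was found in 92.6% to 94.1% of neutrophil-like cells and still in 37.1% to 43.9% of T- and NK-like cells. No class here is known to lack these genes, so the share that free RNA gives in a droplet was not measured. Depth per cell differs between the classes, so the level in the lowest class does not bound that share in the others.

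**Figure D2:**
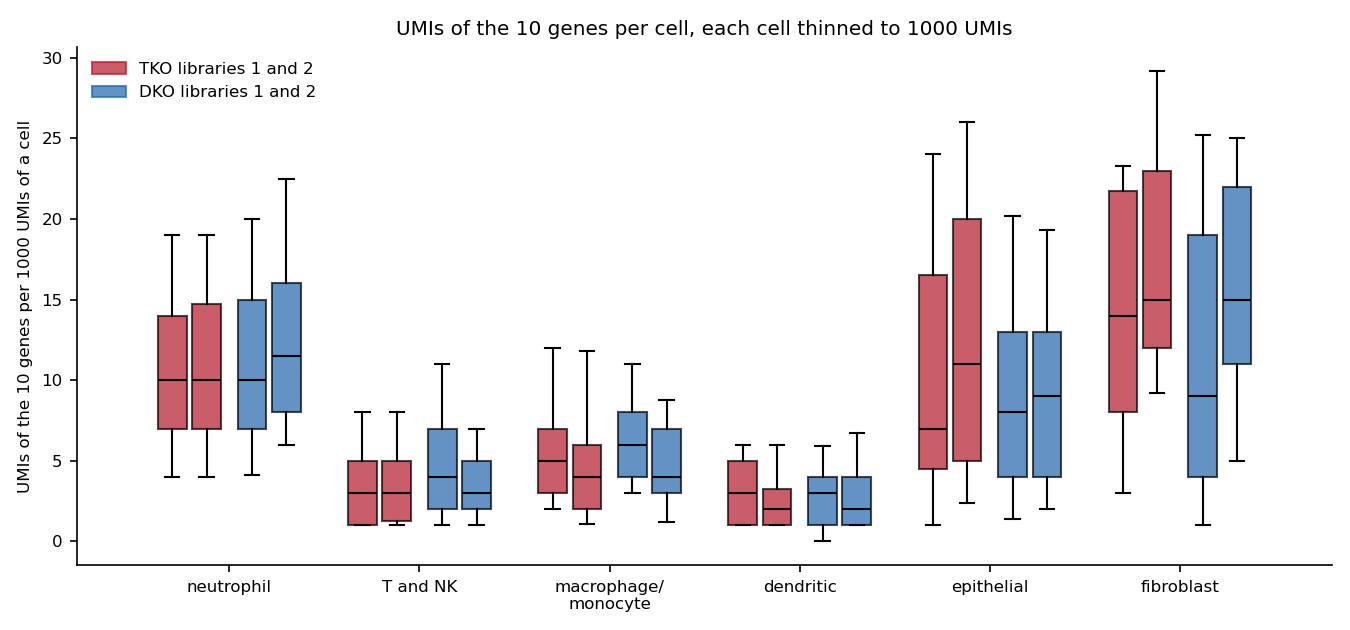
UMIs of the 10 genes summed per cell after thinning each cell to 1000 UMIs, by class and library (red TKO, blue DKO, libraries 1 and 2 from left to right). Boxes span the 25th to 75th percentile of the cells with the median as a line and whiskers the 10th to 90th percentile; medians run from 9 to 15 in fibroblast-like cells and from 2 to 3 in dendritic-like cells.

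Clusters within a class also differed. Among T- and NK-like cells, the cluster led by Il1rl1, Tnfrsf4 and Foxp3, genes of regulatory T cells, held 3272 CPM of Junb and 1474 CPM of Jund over all its cells. The cluster led by Gzmk and Cd8b1, genes of CD8 T cells, held 856.8 CPM of Junb and 632.1 CPM of Jund. Junb in the Foxp3-bearing cluster stood at 3353 and 3529 CPM in TKO and 3697 and 2827 CPM in DKO, above every library of the Cd8b1-bearing cluster, with 916 and 914 CPM in TKO and 637 and 711 CPM in DKO. A cluster of gamma-delta T cell genes (Cd163l1, Trdc) was second for Junb at 2491 CPM and led the class for Ier2 at 472.3 CPM and Jun at 336 CPM. Among neutrophil-like cells, Dusp1 ranged from 2278 CPM in the cluster led by Retnlg, a gene of mature neutrophils, to 613.1 CPM in the cluster led by Siglecf, and 175.8 CPM in the small cluster led by Adamdec1, a wider range than that of the class means. Egr1 was highest at 907.4 CPM in the cluster of interferon-induced genes (Rsad2, Ifit2) and lowest at 74.2 CPM in the Adamdec1 cluster. Junb by contrast lay between 3544 and 4750 CPM in all 5 neutrophil-like clusters. Epithelial-like cells parted at the finer resolution of 2.0 into a cluster led by Svs5, a secretory gene, and one led by Psca and Krt14, of which Krt14 is a basal keratin. The clusters described here were picked after their values were seen.

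An unnamed cluster of 83 cells led by Gpnmb and Ccl3 had the highest sum of all clusters, at 15330 CPM. It held 3218 CPM of Ier3, 1399 CPM of Egr1, 1102 CPM of Atf3 and 1086 CPM of Jun over all its cells. Its Atf3 stood at 1209 and 1019 CPM in TKO and 809 and 2145 CPM in DKO, from 23, 19, 32 and 9 cells. Its median cell had 6269 UMIs, close to the neutrophil-like clusters. A further unnamed cluster of 36 cells had a median of 645 UMIs per cell and a sum of 13420 CPM. The 14 mast and basophil-like cells held 3987 CPM of Ier3 and 2990 CPM of Jund, more than any of the 6 compared classes, and the 13 endothelial-like cells held 2119 CPM of Fos. The 53 B and plasma-like cells had a sum of 1858 CPM.

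**Figure D3:**
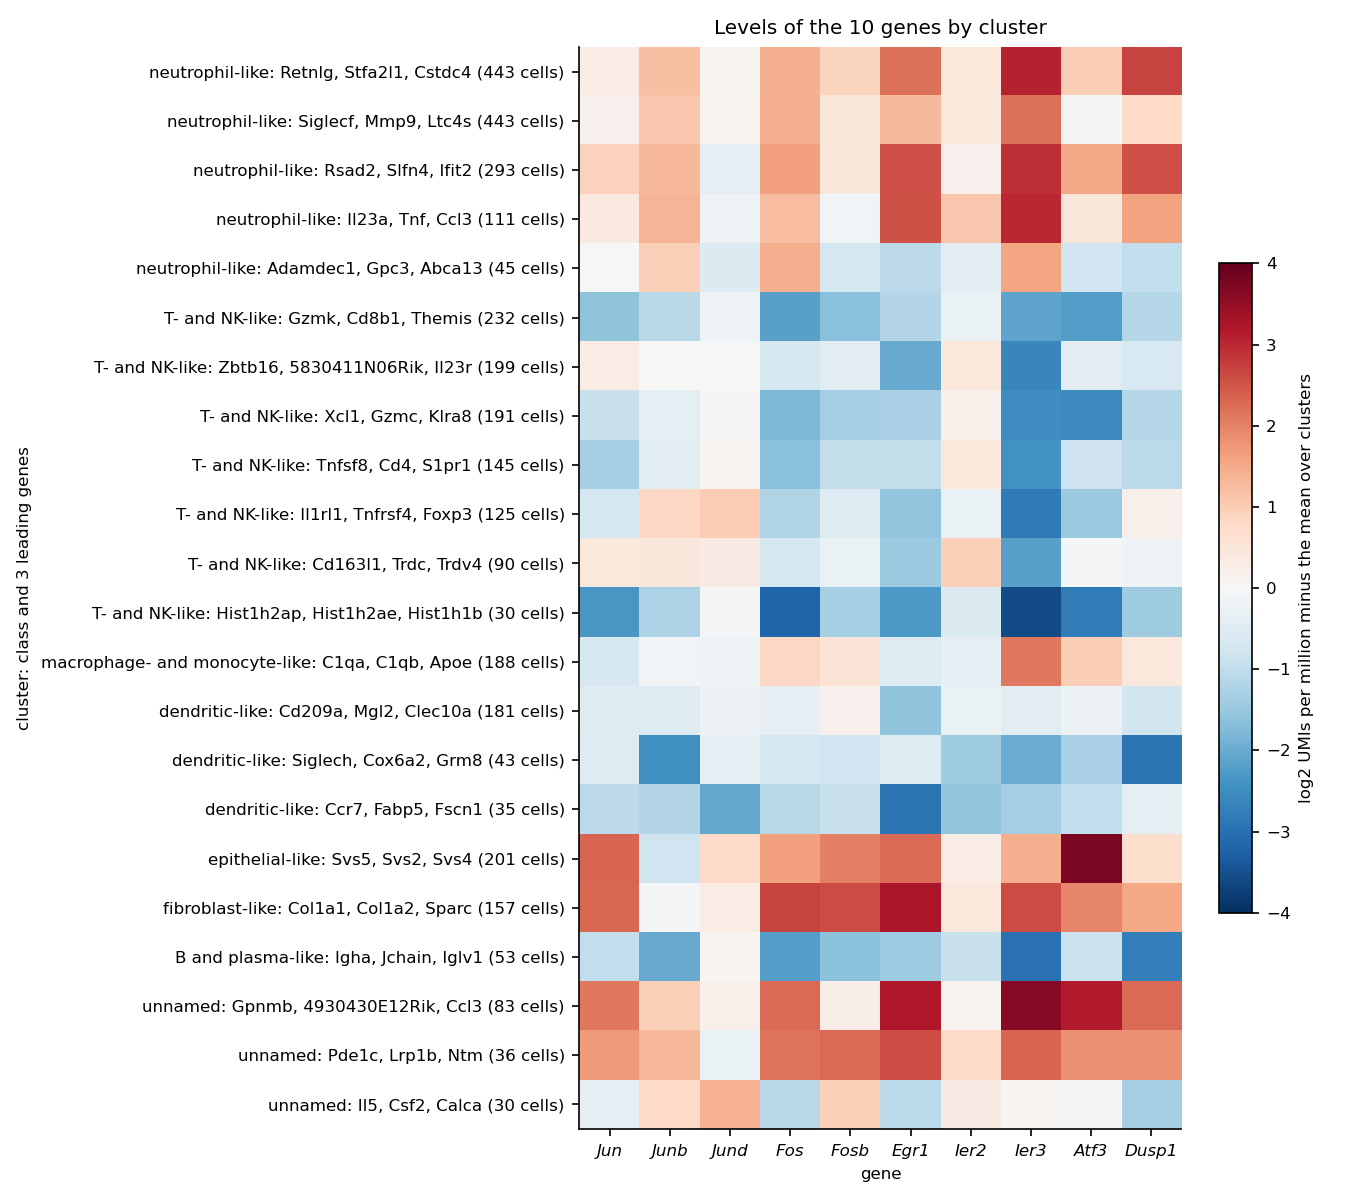
Levels of the 10 genes (columns) in each cluster of at least 30 cells (rows, with class, 3 leading genes and cell number), pooled over libraries, as log2 CPM minus the mean of the gene over the clusters shown. Red fills the fibroblast-like, epithelial-like and most neutrophil-like rows and the Gpnmb-led unnamed row, and blue most T- and NK-like, dendritic-like and B and plasma-like rows, with the Foxp3-bearing row red for Junb and Jund.

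Most pairs of the 10 genes varied together over the classes. The only pairs without a positive correlation were Junb with Jun, Jund, Fosb and Atf3, while Junb with Dusp1 had an r of 0.69. Over the 24 sums of 6 classes and 4 libraries, the 45 pairs of genes had a median Pearson r of log2 CPM of 0.62, from -0.11 for Junb with Atf3 to 0.91 for Fos with Fosb. After taking each class's mean away, the median r was 0.40 and 39 of the 45 pairs were positive. The r over the 24 sums was the higher of the pair's 2 values in 32 of the 45 pairs, but in 2 of the 9 pairs with Junb. Junb with Jund had an r of -0.085 over the 24 sums and 0.57 within classes, and Junb with Fosb -0.044 and 0.40. Jun with Egr1 was then the closest pair (r = 0.72), and Ier3 with Atf3 the farthest (r = -0.22). The points share libraries and one load, so these are descriptions. Of 6662 other genes with a mean of at least 20 CPM, the 6 whose log2 level followed the scaled mean of the 10 most closely over the 24 sums were Rhob (r = 0.93), Phlda1 (0.92), Mettl9 (0.90), Fosl1 (0.90), Csnk1e (0.90) and Carhsp1 (0.90). Pooled over libraries, Rhob, a small GTPase gene of the early response, held 157.8 CPM in neutrophil-like, 144.2 in fibroblast-like and 138.3 in epithelial-like cells and 21.0 in dendritic-like cells. Fosl1, a Fos family member, held 102.9 CPM in epithelial-like and 57.0 in fibroblast-like cells, and 2.65 and 2.47 CPM in T- and NK-like and dendritic-like cells, pooled likewise.

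Between genotypes the comparison asks whether loss of Pygo2, a co-factor of beta-catenin that reads histone marks, goes with other levels of these genes. None of the 10 genes passed the threshold of an adjusted p of 0.05 in any of the 6 classes by edgeR, nor by DESeq2, although all 10 passed the filter on low counts in each. Of all genes tested by edgeR, 0.0113% passed in neutrophil-like, 0.036% in T- and NK-like, 0.039% in macrophage- and monocyte-like, 0.0665% in dendritic-like and 0.0% in both epithelial-like and fibroblast-like cells. Without adjustment, edgeR's p was under 0.05 for 0 of the 10 in neutrophil-like and T- and NK-like cells, against 4.29% and 5.45% of all genes. It was under 0.05 for 2 of the 10 in macrophage- and monocyte-like cells, 2 in dendritic-like cells, 1 in epithelial-like cells and 1 in fibroblast-like cells, against 6.87%, 7.21%, 5.68% and 3.77% of all genes. The labels do not tie each library to its own animal, so a p-value here speaks of the scatter among 4 libraries, part of which could be technical. Fewer cells of a kind and less RNA per cell cannot be told apart in a summed class. Where libraries of the genotypes are said not to overlap, the share of all genes without overlap is not given for the class. In the Retnlg-led, Siglecf-led and Rsad2-led neutrophil-like clusters that share was 37.5%, 38.8% and 30.6%, so a lack of overlap is common with 2 libraries per genotype.

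**Figure D4:**
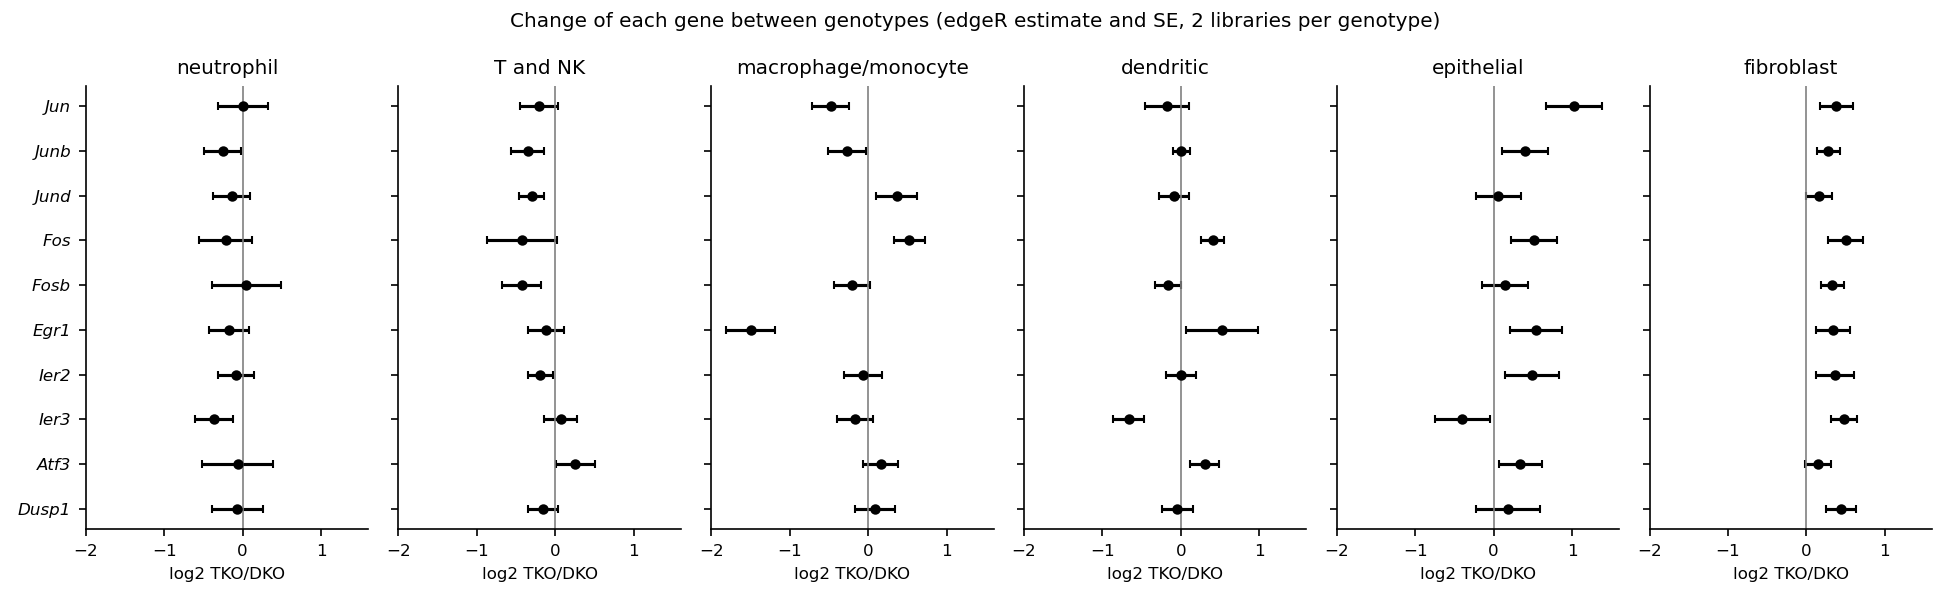
Log2 change of each gene in TKO over DKO in 6 cell classes, as edgeR's estimate (points) with its standard error (bars) from 2 libraries per genotype; the grey line marks no change. All 10 points are above 0 in fibroblast-like cells, 9 of 10 in epithelial-like cells and 2 of 10 in neutrophil-like and in T- and NK-like cells, and no point passed the threshold.

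Fibroblast-like cells had a log2 change above 0 for all 10 genes, with a median of 0.35, beside a median of 0.0042 over all genes tested there. Ier3 was at 1653 and 2077 CPM in TKO and 1320 and 1370 CPM in DKO (0.47 ± 0.16, SE, edgeR adjusted p = 0.997), and the libraries of the genotypes did not overlap. Fos was at 2514 and 3460 CPM in TKO and 1804 and 2420 CPM in DKO (0.50 ± 0.22, edgeR adjusted p = 0.997). Dusp1 was at 1117 and 1246 CPM in TKO and 759 and 984 CPM in DKO (0.44 ± 0.19, edgeR adjusted p = 0.997). These 3 genes showed the largest changes of the 10, and the smallest were those of Atf3 (0.15) and Jund (0.16). All 10 changes stayed above 0 whichever library was left out and under DESeq2's scaling, but Egr1 was at -0.13 and Ier3 at -0.05 with cells thinned to 1000 UMIs. Summed epithelial markers in the same cells were at 67.7 and 89.0 CPM in TKO and 764 and 236 CPM in DKO. Summed smooth muscle markers were at 600 and 350 CPM in TKO and 1490 and 597 CPM in DKO. The 12 heat shock genes of the dissociation response summed to 7211 and 8129 CPM in TKO and 5803 and 6507 CPM in DKO. The 21 other dissociation genes summed to 14580 and 15230 CPM in TKO and 13350 and 14200 CPM in DKO. Both stress sums were thus apart in the same direction as the early genes, and the part of these markers and stress genes in the values was not tested.

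In epithelial-like cells 9 of the 10 genes had a log2 change above 0, with a median of 0.37 beside 0.019 over all genes. TKO library 2 was the highest of the 4 libraries for 9 of the 10 genes in this class, for the 12 heat shock genes and for the 21 other dissociation genes. Heat shock genes summed to 6593 and 13780 CPM in TKO and 5521 and 7400 CPM in DKO, and the other dissociation genes to 8349 and 14080 CPM in TKO and 11040 and 12170 CPM in DKO. Summed endothelial markers were at 93.3 and 173.7 CPM in TKO and 20.6 and 22.9 CPM in DKO. Summed T and NK markers were at 97.8 and 144.7 CPM in TKO and 22.4 and 61.4 CPM in DKO. Summed epithelial markers were at 10160 and 10480 CPM in TKO and 12950 and 13000 CPM in DKO. The part of these in the early gene values was not tested. Jun stood at 1400 and 2887 CPM in TKO and 999 and 1063 CPM in DKO, from 2191 and 1596 UMIs and from 1116 and 4033 UMIs (1.02 ± 0.36, edgeR adjusted p = 0.836). Both TKO libraries were above both DKO libraries, and the change was 1.34 without TKO library 1 and 0.53 without TKO library 2, which has 26 epithelial-like cells. Ier3 was the exception, at 679 and 452 CPM in TKO and 794 and 722 CPM in DKO (-0.40 ± 0.34, edgeR adjusted p = 0.852). Within the Svs5-led cluster Jun was at 1557 and 2892 CPM in TKO and 1531 and 2466 CPM in DKO. Within the Krt14-bearing cluster it was at 1273 and 2855 CPM in TKO and 883 and 674 CPM in DKO. The Svs5-led cluster held 37 and 23 cells in TKO and 17 and 49 in DKO, and the Krt14-bearing one 16 and 3 in TKO and 18 and 39 in DKO. The class's cells had a median of 10172.5 and 8202 UMIs in TKO and 20132 and 21763.5 UMIs in DKO, and the part of depth and of the cluster shares in the Jun values was not tested. Dusp1, at 0.18 ± 0.40 with an edgeR adjusted p of 0.949, was at -0.63 with cells thinned to 1000 UMIs.

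Macrophage- and monocyte-like cells held the largest single difference, in Egr1. It had 116 and 52 UMIs in the TKO libraries and 228 and 114 UMIs in the DKO libraries. These are 55.1 and 74.3 CPM in TKO and 211 and 134 CPM in DKO, with no overlap (-1.50 ± 0.31, edgeR adjusted p = 0.344). Without the filter on low counts Egr1 passed (-1.47, edgeR adjusted p = 0.000206), in a setting where 189 of 16896 genes passed in this class. Without DKO library 2 the change of Egr1 was -1.79. Fos lay the other way, at 793.5 and 812.7 CPM in TKO and 544.0 and 533.2 CPM in DKO (0.52 ± 0.20, edgeR adjusted p = 0.668). The class holds 2 kinds of cell in unequal parts. Summed macrophage markers were at 13040 and 6337 CPM in TKO and 16160 and 19450 CPM in DKO, and summed monocyte markers at 4799 and 5600 CPM in TKO and 5980 and 4098 CPM in DKO. At resolution 2.0 the cluster led by C1qa, a macrophage gene, had 17 and 4 cells in TKO and 17 and 14 in DKO, and the one led by Chil3 and F13a1, monocyte genes, 54 and 38 in TKO and 17 and 18 in DKO.

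Within the C1qa-led cluster Egr1 was at 33.7 and 104 CPM in TKO and 276 and 221 CPM in DKO, so the genotypes still did not overlap. Within the Chil3-led cluster it was at 50.01 and 69.5 CPM in TKO and 89.1 and 31.8 CPM in DKO, and the genotypes overlapped. Fos in the C1qa-led cluster was at 205 and 218 CPM in TKO and 362 and 547 CPM in DKO, which is opposite to the class as a whole. In the Chil3-led cluster Fos was at 1106 and 907 CPM in TKO and 971 and 558 CPM in DKO. These levels have no test, and the clusters were looked at after the class values were known.

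**Figure D5:**
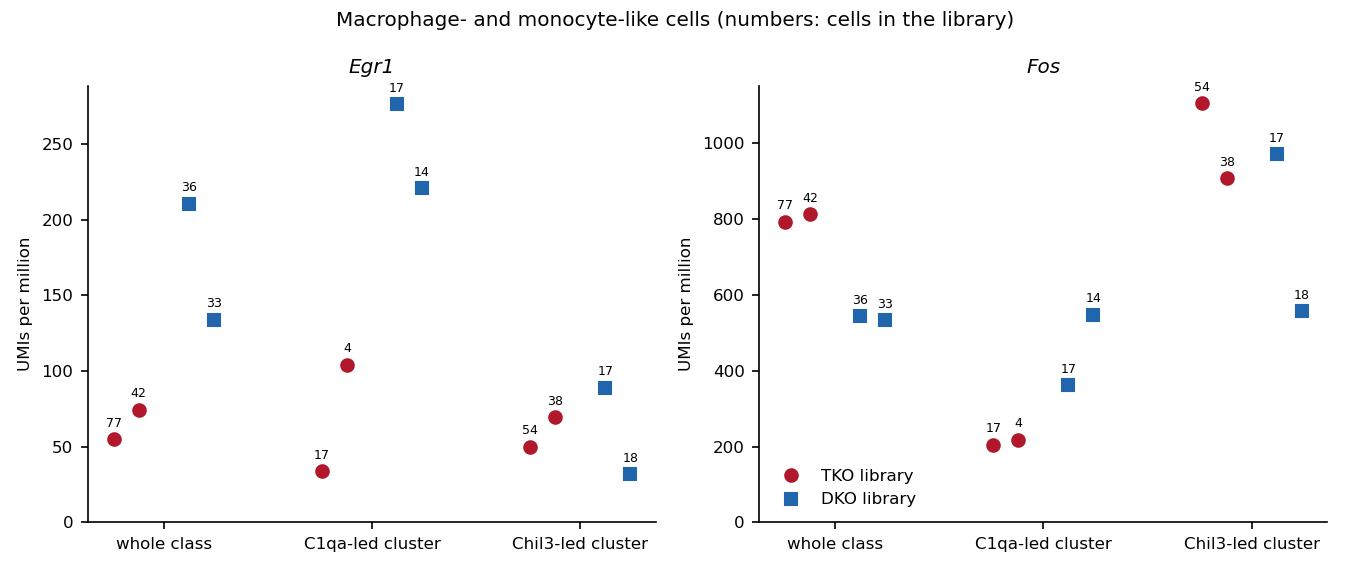
Egr1 (left) and Fos (right) in macrophage- and monocyte-like cells, in CPM, for the whole class and its C1qa-led and Chil3-led clusters, with 1 point per library (red circles TKO, blue squares DKO) and its number of cells beside it. Egr1 is apart between genotypes in the C1qa-led cluster and overlaps in the Chil3-led one, and Fos is higher in TKO for the class and lower in TKO for the C1qa-led cluster.

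Dendritic-like cells had 5 genes above and 5 below 0, with a median of -0.02 beside 0.0035 over all genes. Ier3 was at 113 and 153 CPM in TKO and 218 and 217 CPM in DKO (-0.66 ± 0.20, edgeR adjusted p = 0.408), with no overlap. It passed without the filter on low counts (-0.64, edgeR adjusted p = 0.0395), a setting where 248 of 17898 genes passed in this class. Fos was at 328 and 285 CPM in TKO and 249 and 226 CPM in DKO (0.41 ± 0.15, edgeR adjusted p = 0.583). Summed fibroblast markers in dendritic-like cells were at 484.1 and 271.3 CPM in TKO and 255.1 and 248.5 CPM in DKO. Summed dendritic markers were at 2474 and 2407 CPM in TKO and 1979 and 2214 CPM in DKO. Summed epithelial markers lay the other way, at 102.7 and 117.9 CPM in TKO and 128.8 and 133.0 CPM in DKO. The part of these markers in the early gene values was not tested. In the Cd209a-led cluster, which held most of the class in every library, Ier3 was at 132 and 175 CPM in TKO and 267 and 248 CPM in DKO.

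Neutrophil-like and T- and NK-like cells each had 8 of the 10 genes below 0, with medians of -0.11 and -0.20 beside -0.015 and 0.0046 over all genes. Summed neutrophil markers in neutrophil-like cells were at 39480 and 44750 CPM in TKO and 53740 and 55720 CPM in DKO. Summed monocyte markers in T- and NK-like cells were at 400.8 and 385.5 CPM in TKO and 616.3 and 667.0 CPM in DKO. Their part in the early gene values was not tested. The largest change of an early gene in neutrophil-like cells was that of Ier3 (-0.36 ± 0.24, edgeR adjusted p = 0.999). The Retnlg-led cluster made up 103 of 488 and 115 of 262 neutrophil-like cells in TKO and 104 of 305 and 121 of 280 in DKO. Ier3 there was at 2063 and 1697 CPM in TKO and 2760 and 2179 CPM in DKO. In the Siglecf-led cluster it was at 1185 and 1135 CPM in TKO and 1192 and 1243 CPM in DKO. The part of the cluster shares in the class values was not tested. In T- and NK-like cells Junb stood at 1538 and 1483 CPM in TKO and 2394 and 1484 CPM in DKO (-0.35 ± 0.21, edgeR adjusted p = 0.98), so that DKO library 1 alone was high. The Junb change was 0.01 without DKO library 1 and -0.66 without DKO library 2. DKO library 1 was also the highest of the 4 for Jun, Jund, Fos, Fosb, Egr1, Ier2, Ier3 and Dusp1 in this class. The Foxp3-bearing cluster, highest for Junb, made up 41 of 359 and 24 of 310 T- and NK-like cells in TKO and 26 of 113 and 34 of 230 in DKO.

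No gene of the 10 passed the edgeR test of a difference in the genotype change between classes, in any of the 15 pairs of the 6 classes. Over the 15 pairs 0.0137% of all tests passed. The edgeR p was under 0.05 without adjustment in 17 of the 150 tests of the 10 genes, against 4.64% of all tests, and the pairs share classes and libraries. The smallest was that of Ier3, with a change in dendritic-like minus fibroblast-like cells of -1.10 ± 0.18 on the log2 scale (edgeR adjusted p = 0.159). For Egr1 the change in macrophage- and monocyte-like cells lay below that in fibroblast-like cells by -1.72 ± 0.33 (edgeR adjusted p = 0.588). Between neutrophil-like and T- and NK-like cells 0.068% of all genes passed and none of the 10 with all libraries. At an unadjusted p under 0.05 stood 3.88% of all genes and 0 of the 10 in that pair. Without DKO library 2 the difference was 1.28 for Fos and 1.65 for Fosb.

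With all retained cells summed, none of the 10 genes passed by edgeR or DESeq2, and 0.0% of all genes passed by edgeR. All 10 changes were below 0, with a median of -0.14 beside -0.024 over all genes, and 1 of the 10 had an unadjusted p under 0.05, against 11.8% of all genes. That gene was Atf3, with 334 and 303 CPM in TKO and 382 and 546 CPM in DKO (-0.58 ± 0.19, edgeR adjusted p = 0.351). Fos and Ier2 were slightly above 0 without the filter on low counts. The makeup of the libraries differs, with 52 and 26 epithelial-like cells in TKO and 35 and 88 in DKO, the class where Atf3 is highest. Giving each of the 6 classes the same weight, Atf3 stood at 480 and 574 CPM in TKO and 437 and 433 CPM in DKO, a log2 ratio of means of 0.28. On that scale 8 of the 10 genes were above 0, with Junb (-0.06) and Ier3 (-0.05) below it and Jun the highest (0.54). Classes where a gene is high count most in such a mean. Jun averaged 2144 CPM in TKO and 1031 CPM in DKO in epithelial-like cells, and was also higher in TKO in fibroblast-like and neutrophil-like cells. It was lower in TKO in T- and NK-like (159 and 187 CPM), macrophage- and monocyte-like (140 and 188 CPM) and dendritic-like cells (160 and 187 CPM).

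Other genes of the same response were read from lists. DESeq2 passed 1 of 26 other immediate early genes in T- and NK-like cells, where it passed 26 of 11115 genes in all. It passed 2 of 12 heat shock genes in neutrophil-like cells, beside 18 of 8854 genes, and 1 of 12 in dendritic-like cells, beside 29 of 9017. In the other classes compared it passed none of these lists. Among 27 other immediate early genes tested in fibroblast-like cells, 24 had a change above 0 and 0 passed by edgeR (4 at an unadjusted p under 0.05), with a median of 0.33. Klf4, a transcription factor, was at 979.3 and 1018 CPM in TKO and 758.7 and 725.1 CPM in DKO, and Ppp1r15a, which restores translation after stress, at 193.9 and 243.7 CPM in TKO and 109.3 and 159.3 CPM in DKO. In T- and NK-like cells 17 of 26 such genes were below 0 and 0 passed by edgeR (3 at an unadjusted p under 0.05). Gem, a small GTPase gene, was at 107.1 and 107.3 CPM in TKO and 194.8 and 209.5 CPM in DKO there (-0.92 ± 0.15, edgeR adjusted p = 0.161), with no overlap. It passed by DESeq2 (adjusted p = 0.00478) and without the filter on low counts (edgeR adjusted p = 0.000208). In that class DESeq2 passed 26 of 11115 genes, and edgeR without the filter 136 of 20000. In dendritic-like cells Egr3, a relative of Egr1, was at 23.2 and 32.2 CPM in TKO and 5.97 and 9.73 CPM in DKO (1.81 ± 0.39, edgeR adjusted p = 0.21). It passed without the filter on low counts (edgeR adjusted p = 0.000785), where 248 of 17898 genes of the class did. Without DKO library 2 the change of Egr3 was 2.24. In macrophage- and monocyte-like cells the nuclear receptor gene Nr4a2 was at 404 and 630 CPM in TKO and 238 and 270 CPM in DKO (0.97 ± 0.27, edgeR adjusted p = 0.499). Nr4a2 too passed without the filter on low counts (edgeR adjusted p = 0.0159), where 189 of 16896 genes of the class did.

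Among 8 other MAP kinase phosphatases tested in epithelial-like cells, 7 had a change above 0 and 0 passed by edgeR (2 at an unadjusted p under 0.05). Dusp5 was at 107.4 and 170.1 CPM in TKO and 41.2 and 78.6 CPM in DKO, and Dusp4, the 1 below 0, was at 46.7 and 50.7 CPM in TKO and 124.5 and 89.1 CPM in DKO. Without the filter on low counts Dusp5 (1.07, edgeR adjusted p = 0.0392) and Dusp4 (-1.20, edgeR adjusted p = 0.0189) passed, in a setting where 247 of 19712 genes passed in this class. Of 12 heat shock genes known to be induced by dissociation, 8 to 12 had a change above 0 in each class and in all retained cells, and 1 passed by edgeR. It was Hsp90ab1, an abundant chaperone, in dendritic-like cells, with 1659 and 1556 CPM in TKO and 917.1 and 872.7 CPM in DKO (0.89 ± 0.11, edgeR adjusted p = 0.0402). It no longer passed at resolution 2.0 (edgeR adjusted p = 0.0738) or with at most 10% mitochondrial UMIs (edgeR adjusted p = 0.0532). Summed over the 12 genes, dendritic-like cells held 6056 and 6215 CPM in TKO and 4335 and 4033 CPM in DKO, while their sum of the 10 early genes was 3085 and 2888 CPM in TKO and 3412 and 2865 CPM in DKO. In neutrophil-like cells Hspa1a, the inducible Hsp70 gene, was at 316.7 and 140.9 CPM in TKO and 20.9 and 47.4 CPM in DKO (2.63 ± 0.53, edgeR adjusted p = 0.518), with no overlap. Hspa1a passed by DESeq2 (adjusted p = 5.25e-05), with 18 of 8854 genes of the class, and without the filter on low counts (edgeR adjusted p = 1.32e-14), with 86 of 19158. Its change was 2.11 without DKO library 1 and 3.45 without DKO library 2. The summed 10 early genes in those cells were at 10650 and 10620 CPM in TKO and 10580 and 12440 CPM in DKO. Their 12 heat shock genes together were at 3730 and 2678 CPM in TKO and 2248 and 2441 CPM in DKO. In T- and NK-like cells the heat shock sum was at 5248 and 4999 CPM in TKO and 4470 and 4323 CPM in DKO, and in macrophage- and monocyte-like cells at 6394 and 6270 CPM in TKO and 4604 and 5235 CPM in DKO. It was thus higher in both TKO libraries in 5 of the 6 classes, all but the epithelial-like. In fibroblast-like cells the summed early genes were apart in the same direction, and in the neutrophil-like, T- and NK-like, macrophage- and monocyte-like and dendritic-like classes they overlapped between genotypes. How far the early genes follow the dissociation response was not tested. Of 21 other genes of the dissociation response, 16 were below 0 in neutrophil-like and in T- and NK-like cells and 16 above 0 in fibroblast-like cells, and 0 passed by edgeR or DESeq2 in any class (0, 2 and 2 at an unadjusted p under 0.05 in the 3 classes). Of the AP-1 target genes on the list, 2 of 10 tested in dendritic-like, 3 of 11 in macrophage- and monocyte-like, 4 of 12 in neutrophil-like and 6 of 12 in T- and NK-like cells were above 0, and 4 of 13 in both epithelial-like and fibroblast-like cells. None of them passed by edgeR or DESeq2, with 0 to 3 per class at an unadjusted p under 0.05. The fibroblast-like cells, with all 10 early genes above 0, thus had 9 of 13 such target genes below 0, with a median of -0.30.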

How the data were processed

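Cells of 4 hashtagged libraries, 2 per genotype, were sequenced with a 3-prime droplet kit. The deposited values are raw UMI counts per gene and cell, made with Cell Ranger 7.0.0 and STAR on mm10, per the submitters' processing notes and the file headers, and not normalised. A filter of 200 detected genes or more and 20% mitochondrial UMIs or less left 3381 of 3508 barcodes. Cells were clustered with scanpy 1.11.5 and leidenalg 0.10.2 (2000 variable genes without the 10 genes and the other early and dissociation genes, 30 components, 20 neighbours, resolution 1.0), with no integration and no doublet caller. Each barcode already carries a hashtag call by the authors, which cannot mark doublets of cells from the same library, so these may remain. A class name needed 3 or more markers with a log2 fold over other clusters of 1.0 and a mean log2 fold over 0.5 for the 5 highest markers. The form of this rule was settled with the clusters in view. Unnamed cells made up 3.56% and 5.65% of TKO and 6.65% and 2.64% of DKO libraries.

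Counts were summed per library and class, scaled to CPM for levels, and tested with edgeR 4.0.16 in R 4.3.3 (TMM, filterByExpr, robust quasi-likelihood, genotype as the term), with Benjamini-Hochberg adjustment over all genes of a class at 0.05. Differences between classes used library, class and class by genotype as terms. Standard errors are those that a change and its p imply. DESeq2 1.42.0 was the alternative test. Classes and levels across classes have no test: 2 classes are called apart where their ranges over the 4 libraries do not overlap. Levels are not compared between genes. The steps were run on simulated counts with known changes, as a check of the code. The scatter of those counts was fixed and not taken from these data. The run thus does not measure how many changes the tests miss or wrongly pass here. Positions follow GENCODE of GRCm38 and promoters RefSeq of GRCm38.p6. Named genes were the 10 in every class, up to 3 genes of the smallest p from each further list and class, and the 6 most alike genes; the text names part of them. The 10 genes and all lists were chosen with earlier results of these data known.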

Additional observations from a re-analysis of the deposited data

Results flagged for a closer look

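In 2 neutrophil-like clusters the genotypes differed in opposite directions for Egr1 and Dusp1, and both are listed because every library of each cluster followed its direction. Egr1 was at 451 and 444 CPM in TKO and 262 and 286 CPM in DKO in the Siglecf-led cluster, and at 545 and 569 CPM in TKO and 882 and 816 CPM in DKO in the Retnlg-led cluster. The log2 ratio of TKO to DKO means was 0.71 in the first and -0.61 in the second, a difference of 1.32. For Dusp1 these were 767 and 581 CPM in TKO and 432 and 512 CPM in DKO in the Siglecf-led cluster. In the Retnlg-led cluster they were 2233 and 2142 CPM in TKO and 2253 and 2468 CPM in DKO. The log2 ratios of Dusp1 were 0.51 and -0.11, a difference of 0.62, so it was nearly level in the Retnlg-led cluster. Neither difference was tested. Of the 8854 genes tested in neutrophil-like cells, 38.8% had libraries that did not overlap between genotypes in the Siglecf-led cluster and 37.5% in the Retnlg-led cluster. Over the 3 clusters compared, 2 of the 10 early genes, Egr1 and Dusp1, had genotypes apart in opposite directions in some pair of clusters, beside 11.8% of all genes. This count is near that share, so the pattern does not set the 10 genes apart from other genes. Clusters were compared within a class where each library held at least 20 cells, and this comparison was chosen after the data were seen. Summed over the class, the log2 change of Egr1 was -0.17 ± 0.26 (SE, edgeR adjusted p = 0.999).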

How the results depend on the processing

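Counts of genes past an edgeR adjusted p of 0.05 were small and moved with most settings. In neutrophil-like, T- and NK-like, macrophage- and monocyte-like, dendritic-like, epithelial-like and fibroblast-like cells and in all retained cells they were 1, 4, 3, 6, 0, 0 and 0. With DESeq2's test they were 18, 26, 35, 29, 40, 10 and 352, and without a filter on low counts 86, 136, 189, 248, 247, 166 and 276. Leaving out 1 library gave 1 to 69, 1 to 68, 3 to 97, 7 to 135, 0 to 90, 0 to 19 and 0 to 113. Thinning cells to 1000 UMIs gave 2 in neutrophil-like, 2 in macrophage- and monocyte-like, 1 in dendritic-like and 14 in all retained cells. Dendritic-like cells had 3 at resolution 2.0 and 3 with at most 10% mitochondrial UMIs. For neutrophil-like minus T- and NK-like cells the count was 8, and 12 to 73 with 1 library left out. Of the 10 early genes the count past the threshold was 0 throughout, except for 1 without the low-count filter in macrophage- and monocyte-like (Egr1) and in dendritic-like cells (Ier3). With 1 library left out it ranged from 0 to 1 in T- and NK-like, macrophage- and monocyte-like and epithelial-like cells and from 0 to 2 between neutrophil-like and T- and NK-like cells. A lone library of a genotype is then assumed to vary like the pair of the other genotype. The cause of these moves was not tested.

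Replicate numbers do not pair the libraries: the labels name no shared source, there are only 2 pairs, and same-numbered libraries deviated together with correlations between -0.0619 and 0.374. With the replicate block the counts of genes past the threshold were 10, 9, 7, 20, 0, 25 and 6 in the order above, and 0 of the 10 early genes passed. Among changes of the early genes, the block turned Ier2 in dendritic-like cells to -0.016 and Atf3 in neutrophil-like cells to 0.068.

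Other settings turned the sign of 23 changes of the 10 genes, and leaving out a library turned 55, each at most 0.62 in size to begin with. With thinned cells the turned values were -0.15 for Jun and 0.077 for Atf3 in neutrophil-like cells, 0.045 for Fosb and 0.12 for Ier2 in T- and NK-like cells, and 0.00012 for Fosb, 0.072 for Ier3 and -0.13 for Dusp1 in macrophage- and monocyte-like cells. They were also -0.13 for Egr1 and -0.048 for Ier3 in fibroblast-like cells, -0.63 for Dusp1 in epithelial-like cells and 0.054 for Ier2 in all retained cells. In dendritic-like cells DESeq2's size factors gave -0.0023 for Junb and -0.0028 for Ier2, DESeq2's test -0.0022 and -0.0039, the mitochondrial limit -0.0046 for Junb, and resolution 2.0 gave 0.038 for Dusp1. Without the low-count filter Jund in epithelial-like cells was at -0.020, and in all retained cells Fos was at 0.00067 and Ier2 at 0.0043. The mitochondrial limit gave 0.0068 for Ier2 in all retained cells. Levels computed as a mean over cells moved by less than the spread between libraries in 54 of 60 cases.

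Over the 4 ways of leaving out 1 library, the log2 changes that turned sign had these ranges. In neutrophil-like cells they were for Jun -0.35 to 0.53, Fos -0.60 to 0.37, Fosb -0.47 to 0.94, Egr1 -0.36 to 0.021, Ier2 -0.15 to 0.027, Atf3 -0.57 to 0.79 and Dusp1 -0.40 to 0.42. In T- and NK-like cells they were for Jun -0.55 to 0.16, Junb -0.66 to 0.010, Fos -0.89 to 0.16, Egr1 -0.40 to 0.12, Ier3 -0.16 to 0.24, Atf3 -0.10 to 0.53 and Dusp1 -0.39 to 0.081. In dendritic-like cells they were for Jun -0.52 to 0.28, Junb -0.034 to 0.049, Jund -0.35 to 0.22, Egr1 -0.20 to 1.01, Ier2 -0.24 to 0.21 and Dusp1 -0.29 to 0.25. In all retained cells they were for Jun -0.25 to 0.033, Junb -0.35 to 0.19, Fos -0.14 to 0.11 and Ier2 -0.058 to 0.013. In the difference between neutrophil-like and T- and NK-like cells they were for Jun -0.54 to 1.05, Junb -0.35 to 0.47, Jund -0.11 to 0.41, Fos -0.75 to 1.28, Fosb -0.37 to 1.65, Egr1 -0.46 to 0.39, Ier2 -0.048 to 0.26, Atf3 -0.98 to 0.70 and Dusp1 -0.52 to 0.77. In macrophage- and monocyte-like cells they were for Junb -0.53 to 0.061, Ier2 -0.24 to 0.15, Ier3 -0.40 to 0.13 and Dusp1 -0.13 to 0.35. In epithelial-like cells they were for Jund -0.15 to 0.24, Fosb -0.15 to 0.34 and Dusp1 -0.46 to 0.59.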
